A study of Mus musculus with 24 samples.

Results

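The 10 genes described here code for transcription factors of the effector program of CD8+ T cells: Tbx21, Eomes, Prdm1, Id2, Batf, Irf4, Zeb2, Zbtb32, Bhlhe40 and Tox. They were chosen by name, as a list of factors, and no measured value entered the rule, although earlier results of these data were known. All 10 were on the array, through 14 of its 39429 gene probes, and all 10 were among the 9444 genes tested of 23878 named genes. Eomes passed the filter on dim probes through the graft (well above background, a flag of the scanner software, on 3 of 4 graft arrays and 1 of 20 day 4 arrays) and Prdm1 through day 4 (0 of 4 and 16 of 20), so neither passage is a result.

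The cells came from a mouse model of acute graft-versus-host disease, in which donor T cells attack the tissues of the recipient. OT-I CD8+ T cells carry a transgenic receptor for an ovalbumin peptide and here bore the CD45.1 allele, while the other graft cells and the recipients were CD45.2. Recipients were female C57BL/6 mice of the m-act OVA line, C57Bl/6-Tg(CAG-OVA)-916Jen/J, which carry an ovalbumin transgene under the broadly active CAG promoter, and the OT-I donors were of the strain C57BL/6-Tg(TcraTcrb) 1100Mjb/J. The labels give an age of 8 to 16 weeks, and recipients had 11 Gy of total body irradiation in 2 doses before receiving bone marrow and splenocytes. The 5 groups were the graft at day 0 (n = 4) and cells recovered at day 4 from blood, liver, lung or small intestine (n = 5 each). All were selected with magnetic beads on CD45.1. No group transferred into recipients without ovalbumin was analysed here, so antigen, irradiation, transfer and time change together between graft and day 4. Whether the arrays of a group stand for different animals is not said in the labels, and the p-values thus reflect only the variation among these arrays, which may in part be technical.

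As background, effector CD8+ T cells are shaped by factors that act in layers. BATF, a small AP-1 protein, and IRF4, whose amount follows the strength of the T cell receptor signal, bind DNA together soon after activation. The T-box factors T-bet (Tbx21) and EOMES then drive cytotoxic genes and interferon gamma. Blimp-1 (Prdm1) and ZEB2 are repressors linked to terminal effector differentiation, and ID2 blocks the DNA-binding E proteins. BHLHE40 is a basic helix-loop-helix repressor of activated T cells, ZBTB32 is a BTB zinc finger repressor that restrains lymphocyte responses, and TOX is an HMG-box factor best known from exhausted T cells.

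The probes behind the results that follow are short, and each level refers to the sequence of its probe alone. The first 30 bases of the 60-base probe are given for the 5 genes called between day 4 and graft at every site, with both probes for the genes that have a second one. The array's annotation places them on mm9. They lie at chr7:31374702-31374761 (minus strand) for Zbtb32, chr6:108616309-108616368 (plus) for Bhlhe40 and chr12:87049872-87049929 (plus) for Batf. The Tox probes lie at chr4:6614755-6614814 and chr4:6613551-6613610 (minus), 1204 bases apart from start to start. The Eomes probes lie at chr9:118395189-118395248 and chr9:118394425-118394484 (plus), 764 bases apart. Exon and UTR positions were not analysed here.
Zbtb32 (A_55_P1997509): gtgaagattaactggggactgtcaatttca
Bhlhe40 (A_51_P272553): agcagcggatggagcgtccttgctaaaaag
Batf (A_51_P114616): tatagtcaatgtactggactctcccaggga
Tox, probe used (A_55_P2032659): tccaagtcctgttatggataaagctgccaa
Tox, other probe (A_55_P1988148): gagagctcaaactttactgtcttgatactg
Eomes, probe used (A_55_P2184434): tcataagtcatttttaataaatgtggttca
Eomes, other probe (A_55_P2150717): gctatgaagaacgagtgcccggtgctatta

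The remaining genes have probes at chr11:96959417-96959476 (Tbx21, minus strand), chr13:30858532-30858591 (Irf4, plus), chr10:44157089-44157148 (Prdm1, minus) and chr12:25778904-25778963 (Id2, minus). Zeb2 has 3 probes on the minus strand, of which the one at chr2:44840038-44840097 was used. The Batf probe is printed 10 times on each array, and its level is the mean of those spots, whose log2 values had a median SD of 0.0753 within an array (range 0.0432 to 0.132). The other probes had 1 spot each.

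Before the results, some facts on the arrays bear on them. All graft arrays lay on 1 slide of their own, scanned apart from the others, so slide and group cannot be told apart in any comparison with the graft. The 20 day 4 arrays lay on 5 slides, each with 1 array of every site. The 9 T cell markers examined were well above background on all 24 arrays. Of these 4 were called higher over the day 4 sites than in the graft, beside 34.3% of all tested genes. They were Cd3e 0.80, Cd3g 0.69, Cd5 0.74 and Lck 0.58 (limma adjusted p = 0.00863, 0.0383, 0.0452 and 0.0323). Cd8a (0.32), Cd8b1 (0.21), Cd3d (0.37), Zap70 (0.35) and Cd2 (-0.24) were not called. The summed signal of the 9 markers was taken in multiples of the array's 75th percentile signal. Its median was 307 over the graft arrays, against 555 for liver, 491 for blood, 409 for lung and 301 for intestine. The part of this in the factors' differences from the graft was not tested. Markers of other cells differed between the groups. On the same scale the summed signal of 10 B and plasma cell markers ran from 224 to 316 in the graft and from 23.9 to 117 at day 4. Of the 9 tested, 6 were called lower over the sites and 0 higher, beside 19.1% and 34.3% of all tested genes. Ms4a1 and Spib were well above background on 4 of 4 graft arrays and 0 of 20 day 4 arrays, while Cd79b, which fell by 5.01 (limma adjusted p = 5.14e-11), was still above it on 20 of 20. Ebf1 (0.25), Xbp1 (0.28) and Sdc1 (-0.66) were not called, and the first 2 were well above background on all arrays. For 8 neutrophil and monocyte markers the sums were 279 to 420 and 0.933 to 86.1, for 9 dendritic cell markers 215 to 258 and 30.3 to 264, for 8 macrophage markers 14.1 to 46.3 and 4.09 to 130, and for 4 CD4 and regulatory T cell markers 4.98 to 5.83 and 3.13 to 4.87. For 6 NK cell markers they were 7.45 to 11.6 and 4.91 to 18.3. The part of such cells in any value below was not tested. In bulk RNA, fewer cells that express a gene and less RNA of it per cell cannot be told apart. Lung array 4 and intestine array 4 are the 2 day 4 arrays that earlier results of these data set apart. Without them, 5 factors were called higher and 1 lower over the sites, Irf4 among the higher (1.32, limma adjusted p = 0.0353). The share of all tested genes called without these arrays is not given here. Both arrays had the lowest Irf4 level of their site (0.32 and -1.64), so leaving them out raised its mean.

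Against the graft, 4 of the 10 factors rose at day 4, namely Zbtb32, Bhlhe40, Tox and Batf. Eomes, which passed the filter through the graft alone, was called lower. The remaining 5, Irf4, Prdm1, Id2, Zeb2 and Tbx21, did not pass the test on the mean of the 4 sites. For each of the 4 factors that rose, every one of the 20 day 4 arrays exceeded every graft array, which held for 10.9% of all tested genes. The differences below are between log2 levels, where a level is the log2 signal minus the array's 75th percentile, and come from 1 limma fit over all 24 arrays and 9444 genes, with a call at a Benjamini-Hochberg adjusted p under 0.05. In this comparison 34.3% of all tested genes were called higher and 19.1% lower. A count of 4 higher and 1 lower of 10 is close to those shares. The median difference was 0.94 over the 10 factors and 0.23 over all tested genes.

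**Figure D1:**
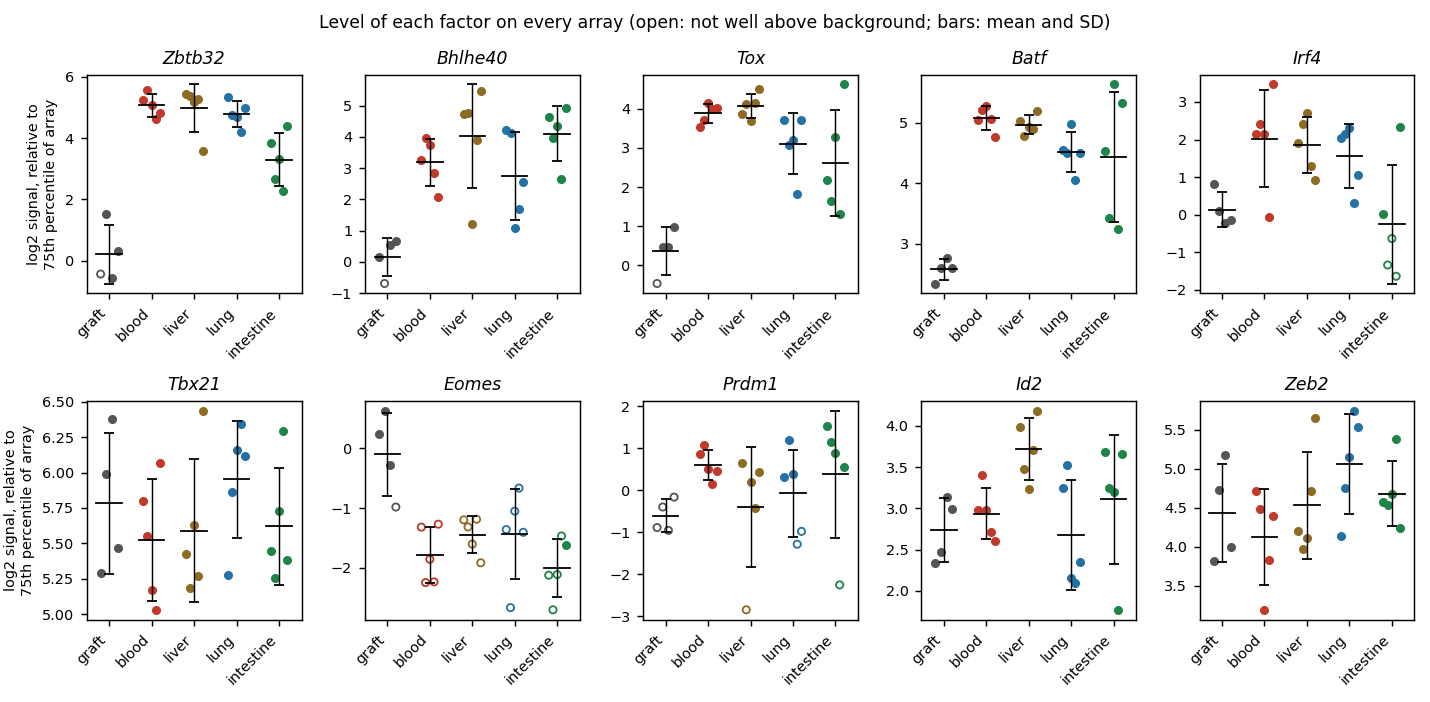
Level of each of the 10 factors on every array (vertical axes, log2 signal relative to the array's 75th percentile) in the graft (n = 4) and 4 day 4 sites (n = 5 each); open points are not well above background, and bars give the mean and SD. For Zbtb32, Bhlhe40, Tox and Batf every day 4 array lies above every graft array, and for Eomes 19 of 20 lie below every graft array.

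Batf, the AP-1 factor that pairs with IRF4, had levels of 2.35, 2.60, 2.77 and 2.61 on the 4 graft arrays. In blood the levels were 5.05, 5.22, 5.28, 5.06 and 4.77, and in liver 5.03, 4.78, 4.94, 4.90 and 5.20. Thus blood and liver arrays kept within narrow bands, far above the graft. In lung Batf read 4.56, 4.51, 4.98, 4.05 and 4.51, and in intestine 4.53, 3.44, 5.64, 3.25 and 5.34. The intestine arrays were spread most, with numbers 2 and 4 low and 3 and 5 high. The mean over the sites exceeded the graft by 2.17 (SE 0.29, limma adjusted p = 1.87e-06). By site the difference from the graft was 2.49 for blood, 2.39 for liver, 1.94 for lung and 1.85 for intestine, and each was called.

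Irf4, its partner, was less uniform. Graft levels were 0.81, 0.11, -0.22 and -0.15. Blood arrays read 2.14, 2.42, 2.15, -0.07 and 3.46, and liver arrays 1.92, 2.41, 2.70, 1.29 and 0.93. In blood, array 4 was as low as the graft, while liver arrays were all above it, as for 31.1% of all tested genes. Lung arrays read 2.04, 2.14, 2.31, 0.32 and 1.05, and intestine arrays 0.03, -1.34, -0.63, -1.64 and 2.33, of which only 2 of 5 were well above background. Intestine therefore straddled the graft, with arrays 2, 3 and 4 below it and array 5 above. Irf4 was called higher than the graft in blood (difference 1.88, SE 0.68, limma adjusted p = 0.0224) and in liver (1.71, adjusted p = 0.0399). It was not called in lung (1.43, adjusted p = 0.102), in intestine (-0.39, adjusted p = 0.677) or over the 4 sites (1.16, adjusted p = 0.0812). Without blood array 4 it was called over the sites (1.29, adjusted p = 0.0352), and without intestine array 5, which enters through the shared spread, in lung (adjusted p = 0.0456). Scaling by probes detected on all arrays ended the blood call (1.55, adjusted p = 0.0745) and the liver call (1.19, adjusted p = 0.180), and so did leaving out graft array 3 (adjusted p = 0.0545 and 0.0870) or graft array 4 (0.0516 and 0.0847). Without blood array 5 the blood value was 1.52 (adjusted p = 0.0675), and without liver array 3 the liver value was 1.50 (adjusted p = 0.0887). The liver call also ended without graft array 2 (adjusted p = 0.0723), liver array 1 (0.0617) or liver array 2 (0.0812).

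Of the T-box factors, Tbx21 was bright in every group and did not pass the test at any site. Its mean was 5.78 ± 0.50 (SD, n = 4) in the graft. At day 4 it was 5.52 ± 0.43 for blood, 5.59 ± 0.50 for liver, 5.95 ± 0.42 for lung and 5.62 ± 0.41 for intestine (SD, n = 5 each). All groups overlapped. The difference over the sites was -0.11 (SE 0.25, limma adjusted p = 0.726), and by site it ran from -0.26 in blood to 0.17 in lung. The sign depended on the scaling. Relative to probes detected on all 24 arrays Tbx21 was called lower over the sites, by -0.52 with the 75th percentile (adjusted p = 0.0387) and by -0.66 with the median (adjusted p = 0.0465), while with normexp background correction the difference was 0.14 (adjusted p = 0.521).

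Eomes, the other T-box factor, went the opposite way from the factors that rose. Graft levels were 0.24, 0.63, -0.28 and -0.98, with 3 of 4 arrays well above background. Blood read -1.32, -2.25, -1.86, -2.24 and -1.27, liver -1.20, -1.32, -1.60, -1.19 and -1.92, lung -1.36, -2.67, -1.05, -0.67 and -1.41 and intestine -2.12, -2.70, -2.11, -1.47 and -1.63. Only lung array 4 reached above the lowest graft array, and 19 of 20 day 4 arrays were not well above background. The fitted difference over the sites was -1.57 (SE 0.30, limma adjusted p = 0.000151), and Eomes was called lower at all 4 sites. As Eomes passed the filter on dim probes through the graft alone, these calls are in part set by the filter. Because the dim side has only an upper bound, the fall in the scaling reported here is given as at least 1.73-fold in blood, at least 1.75-fold in liver and at least 1.36-fold in lung. These bounds set the graft mean against, per array, the higher of the dimmest signal flagged well above background and the probe's own signal. Where the mean on the bright side includes arrays not well above background, such a bound is not strict. That holds for the graft mean of both Eomes probes.

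The second Eomes probe also passed the filter through the graft alone, so its calls too are in part set by the filter. It read 0.70, 1.94, -0.35 and -1.40 on the graft arrays, where 3 of 4 were well above background, against 1 of 20 at day 4. With its day 4 signal not well above background, its fall is given as at least 2.19-fold in liver, at least 1.69-fold in lung and at least 2.03-fold in intestine (limma adjusted p = 0.000264, 0.00139 and 0.00122). NK cells also express Eomes. Of 5 tested NK cell markers 2 were called lower, beside 19.1% of all tested genes. Klra8 fell by 2.03 (limma adjusted p = 0.000604) and Klra4 fell by 2.00 (adjusted p = 0.000978), and Klrc1 rose by 2.80 (adjusted p = 5.5e-07). Klrb1c (-0.31) and Klre1 (-1.06) were not called. The part of NK cells in the Eomes value was not tested. With normexp background correction the Eomes difference shrank to -0.53 but was still called (adjusted p = 0.00106), and it was smaller than the bounds of the first probe at the 3 sites that have one (-0.63 in blood, -0.46 in liver and -0.43 in lung).

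**Figure D2:**
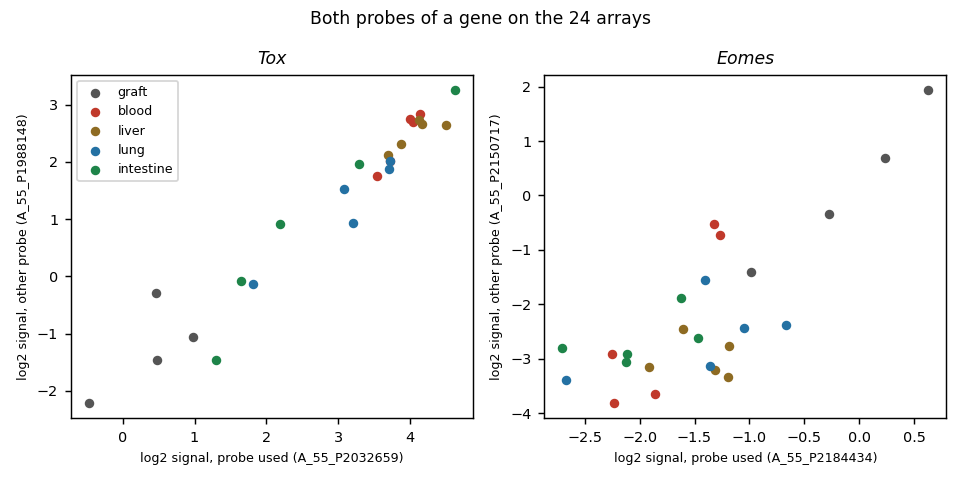
Levels of both Tox probes and both Eomes probes on the 24 arrays (each axis, log2 signal relative to the array's 75th percentile; points are arrays, coloured by group). The graft arrays sit lowest on both axes for Tox, together with intestine array 4 on the second probe, and 3 of the 4 sit highest on both axes for Eomes.

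Among the repressors linked to terminal effector differentiation, Prdm1 was not well above background on the 4 graft arrays. There it read -0.89, -0.40, -0.96 and -0.16. At day 4 it was well above background on 5 of 5 blood arrays, 4 of 5 liver, 3 of 5 lung and 4 of 5 intestine arrays. Blood arrays read 0.86, 1.07, 0.50, 0.15 and 0.46, all above the graft as for 33.7% of all tested genes, and the other sites overlapped it, from -2.85 on liver array 2 to 1.54 on intestine array 1. Prdm1 was not called over the sites (difference 0.73, SE 0.56, limma adjusted p = 0.273; at least 1.56-fold) or at any site. Blood came nearest, at 1.21 (adjusted p = 0.133; at least 2.17-fold). The bounds over the sites and in blood belong to the scaling reported here and carry no test. Under other scalings the log2 difference was as low as 0.19 over the sites and 0.55 in blood, both smaller than the bounds. A fit on the blood and graft arrays alone called Prdm1 in blood (adjusted p = 0.00175). Without intestine array 4, the intestine value rose from 0.98 to 1.64 and was called (adjusted p = 0.0286).

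Zeb2, the E-box binding repressor that acts with T-bet, did not pass the test either. Its mean was 4.43 ± 0.63 (SD, n = 4) in the graft. At day 4 it was 4.12 ± 0.62 for blood, 4.53 ± 0.69 for liver, 5.06 ± 0.64 for lung and 4.68 ± 0.42 for intestine (SD, n = 5 each). The difference over the sites was 0.17 (SE 0.32, limma adjusted p = 0.67), with a sign that turned to -0.28 under quantile normalisation. Its other probes were mostly not well above background. One, chr2:44842774-44842833, was well above background on 2 of 24 arrays, both from intestine, and chr2:44965914-44965973 on 0 of 24. The first 30 bases of the latter also occur in a Zeb2 promoter window described below, before the annotated start of that window.

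Zeb2 and Tbx21 peaked on the same array in 4 of the 5 groups. Both had the highest level of their group on graft array 3, liver array 5, lung array 4 and intestine array 4, while in blood Tbx21 was highest on array 5 (6.07) and Zeb2 on array 1 (4.72). The 75th percentile signal, to which levels are scaled, was 980 on graft array 3, 772 on liver array 5 and 849 on lung array 4, the lowest of each group, and 942 on intestine array 4, where intestine array 3 was lower at 840. The part of this scaling in the match was not tested.

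Id2, the inhibitor of E proteins, was called higher than the graft only in liver. Graft arrays read 2.34, 2.48, 3.14 and 2.99 and liver arrays 3.99, 3.47, 3.24, 3.71 and 4.18. All 5 liver arrays exceeded all 4 graft arrays, as for 31.1% of all tested genes. The liver difference was 0.98 (SE 0.36, limma adjusted p = 0.0273), against 0.20 in blood, -0.06 in lung and 0.37 in intestine. Liver did not pass the test against blood (0.78, adjusted p = 0.989) or lung (lung minus liver -1.04, adjusted p = 0.177), so no site was shown to differ from another. Quantile normalisation took the liver value to 0.33 (adjusted p = 0.390). The call also ended without graft array 1 (adjusted p = 0.0862), graft array 2 (0.0734), liver array 1 (0.0564) or liver array 5 (0.0622).

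The remaining 3 factors, Zbtb32, Bhlhe40 and Tox, had the widest differences. Zbtb32, the BTB zinc finger repressor, read -0.43, 1.52, -0.55 and 0.33 on the graft arrays. Blood arrays read 5.24, 5.55, 5.08, 4.61 and 4.81, and liver arrays 5.43, 5.36, 5.17, 5.27 and 3.58. Blood and liver lay together except for the lower liver array 5. Lung arrays read 5.35, 4.76, 4.69, 4.18 and 4.98, and intestine arrays 3.84, 2.68, 3.31, 2.27 and 4.39. Every intestine array lay below every blood array, as for 6.66% of all tested genes, and still above the graft. Over the sites the difference from the graft was 4.31 (SE 0.37, limma adjusted p = 3.05e-09). It was 4.84 for blood, 4.75 for liver, 4.58 for lung and 3.08 for intestine, each called.

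Bhlhe40, the helix-loop-helix repressor, read 0.17, -0.69, 0.53 and 0.66 in the graft. Blood arrays read 3.27, 3.96, 3.75, 2.85 and 2.09 and liver arrays 4.74, 4.74, 1.22, 3.88 and 5.47. Liver array 3 stood low among its group. Lung arrays read 4.20, 4.12, 1.08, 1.71 and 2.57 and intestine arrays 4.62, 3.97, 4.33, 2.65 and 4.92. The day 4 arrays thus ran from 1.08 to 5.47 with a median of 3.92, a wide range that began just above the highest graft array. The difference over the sites was 3.34 (SE 0.59, limma adjusted p = 5.72e-05), and by site 3.02, 3.85, 2.57 and 3.93 in blood, liver, lung and intestine, each called.

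Tox, the HMG-box factor, read -0.47, 0.48, 0.47 and 0.98 in the graft. Blood arrays read 3.54, 3.72, 4.14, 4.00 and 4.03 and liver arrays 3.87, 4.13, 3.69, 4.16 and 4.50. Both sites were tight. Lung arrays read 3.71, 3.08, 3.21, 1.81 and 3.72 and intestine arrays 2.19, 1.65, 3.29, 1.30 and 4.62, again with intestine arrays 2 and 4 low and 3 and 5 high. The difference over the sites was 3.05 (SE 0.40, limma adjusted p = 1.64e-06), and each site was called, from 2.25 in intestine to 3.71 in liver. The second Tox probe was well above background on 1 of 4 graft arrays and 18 of 20 day 4 arrays, so its difference of 3.02 (SE 0.52, adjusted p = 4.32e-05) rests on a graft signal that was mostly not measured. On it 19 of 20 day 4 arrays exceeded every graft array.

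**Figure D3:**
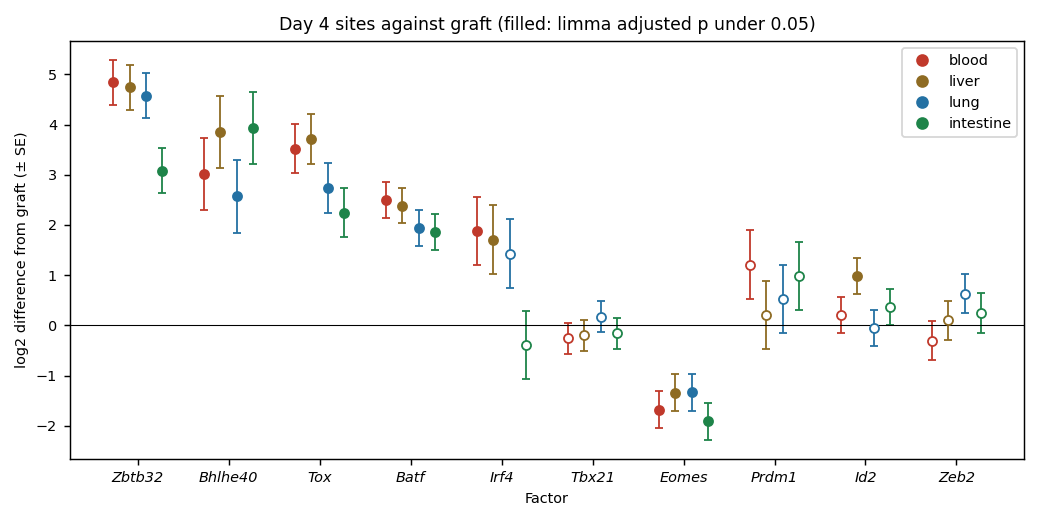
Difference of each day 4 site from the graft (vertical axis, log2 difference with its SE from limma) for the 10 factors; filled points have a limma adjusted p under 0.05. Zbtb32, Bhlhe40, Tox and Batf are filled above 0 at all 4 sites and Eomes below 0, while Irf4 is filled in blood and liver and Id2 in liver.

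By site, the counts against the graft were 5 factors higher and 1 lower in blood, beside 35.3% and 21.2% of all tested genes. In liver they were 6 and 1, beside 34.4% and 16% of genes. In lung and in intestine they were 4 and 1, beside 25.8% and 11.6% of genes in lung and 22.1% and 12.8% in intestine. The median difference over the 10 factors was 1.55 for blood, 1.35 for liver, 1.03 for lung and 0.68 for intestine, where the median over all tested genes was 0.28, 0.34, 0.18 and 0.09. These comparisons share the 4 graft arrays.

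The sites were then compared with one another, which involves no graft array. Between intestine and blood, Irf4 and Zbtb32 were called lower in intestine, 2 of the 10 factors, beside 11.5% of all tested genes called lower and 1.78% called higher. Irf4, well above background on 2 of 5 intestine arrays and 5 of 5 blood arrays, was lower by a fitted difference of -2.27 (SE 0.64, limma adjusted p = 0.0277) and Zbtb32 by -1.76 (SE 0.42, adjusted p = 0.0151). Within slides the direction held on 5 of 5 slides for both, with Irf4 differences from -3.76 to -1.13 and Zbtb32 differences from -2.87 to -0.42. One sign on all 5 slides was not rare: of 60 values (10 factors in 6 pairs of sites) 10 had it, and 8 of those were not called, Id2 in liver against blood among them. With the slide as a fixed block over the day 4 arrays the adjusted p was 0.0312 for Irf4 and 0.0276 for Zbtb32. Irf4 was also lower in intestine by -2.10 against liver (adjusted p = 0.112) and by -1.82 against lung (adjusted p = 0.297), neither of which was called. For Zbtb32 those values were -1.66 (adjusted p = 0.11) and -1.49 (adjusted p = 0.129).

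Single arrays bear on these calls. Without intestine array 2 neither was kept (adjusted p = 0.0912 for Irf4 and 0.0531 for Zbtb32). Without intestine array 4 Irf4 was -1.92 (adjusted p = 0.0876), and its call also ended without blood array 2 (adjusted p = 0.0597), 3 (0.0596) or 5 (0.0734). Without intestine array 5, both factors were called lower in intestine against liver and lung as well (Irf4 -2.74 and -2.46, adjusted p = 0.00649 and 0.0220; Zbtb32 -1.94 and -1.77, adjusted p = 0.00951 and 0.0335). A fit on the blood and intestine arrays alone called neither (adjusted p = 0.112 for Irf4 and 0.0501 for Zbtb32). The summed T cell marker signal also varied in intestine: in multiples of the 75th percentile signal it was 301, 196, 692, 175 and 516 on arrays 1 to 5, against 375 to 570 in blood. Arrays 2 and 4, with the lowest sums, had the lowest Batf, Irf4, Zbtb32 and Tox levels. The part of T cell content in these differences was not tested.

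**Figure D4:**
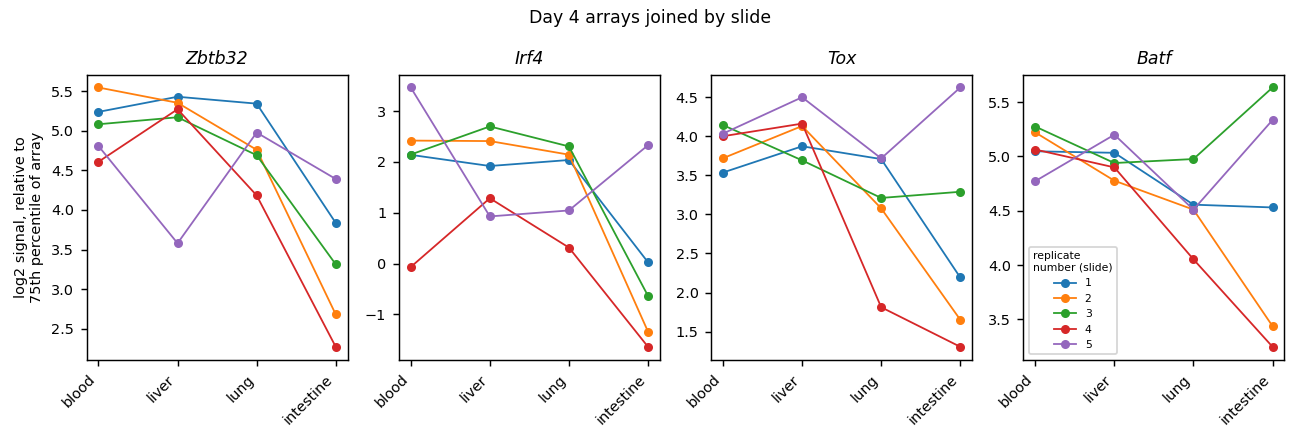
Levels of Zbtb32, Irf4, Tox and Batf on the day 4 arrays (vertical axes, log2 signal relative to the array's 75th percentile) by site, with lines joining the arrays of 1 slide. For Zbtb32 and Irf4 the intestine point lies below the blood point on all 5 slides, while slide 5 runs the other way for Tox and slides 3 and 5 for Batf.

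Tox was lower in intestine than in blood by a difference of -1.27 (SE 0.47), which did not pass the test (limma adjusted p = 0.0673), and on 4 of 5 slides. With the slide as a random block its adjusted p was 0.0467. Without intestine array 5 the value was -1.78 (adjusted p = 0.00387), without intestine array 3 it was -1.44 (0.0405), and without lung array 4, which enters through the shared spread, the adjusted p was 0.0482. Batf differed by -0.64 (adjusted p = 0.176), and was called without intestine array 3 (-0.94, adjusted p = 0.0333). Bhlhe40 was the one factor among those that rose whose intestine mean was above blood, by 0.92 (SE 0.68, adjusted p = 0.298).

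No factor was called between any other pair of sites with all arrays in the fit. Leaving out liver array 5 or intestine array 3 brought calls between intestine and liver for Zbtb32 (limma adjusted p = 0.0119 and 0.0447), the former also for Irf4 (0.0498) and the latter also for Tox (0.0498). Tox was called there without intestine array 5 as well (-1.96, adjusted p = 0.00559), and Zeb2 between lung and blood without lung array 1 (1.17, adjusted p = 0.0448). The share of all tested genes called there was 0% for liver against blood, 1.45% for lung against blood, 0.455% for lung against liver, 0% for intestine against liver and 0.381% for intestine against lung. For the 3 tissues together against blood it was 0.18%, again with 0 factors called. Ordered by mean level, Zbtb32 and Batf ran from blood through liver and lung to intestine, and Tox from liver through blood and lung to intestine. Bhlhe40 ran from intestine through liver and blood to lung, and Irf4 from blood through liver and lung to intestine. Tbx21 and Zeb2 ran from lung through intestine and liver to blood, Id2 from liver through intestine and blood to lung, and Prdm1 from blood through intestine and lung to liver. Eomes, not well above background on 19 of 20 day 4 arrays, has no order. In none of these orders did neighbouring sites differ past the threshold.

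The promoters of these genes were read for motifs of the same factors, in windows of 300 bases (250 before to 50 after an annotated start) from RefSeq on GRCm38.p6. Of the 10 genes 8 matched an entry, with 12 windows in all. The motifs, on both strands, were the AP-1 core TGANTCA, the IRF repeat (GAAA, any 2 bases, GAAA), the T-box core GGTGTGA, the E-box CANNTG and within it CACGTG and CAGGTG, the letters bound by BHLHE40 and ZEB2. Of 32851 mouse windows, 7.81% held the AP-1 core, 3.44% the IRF repeat, 3.98% the T-box core, 72.3% an E-box, 7.15% CACGTG and 20.2% CAGGTG. The windows of Batf and Zbtb32, which rose, and of Eomes, which fell, are shown with motif matches in capitals. Batf (chr12:85686470-85686769) and Zbtb32 (chr7:30598860-30599159, 1 of its 2 windows) held E-boxes only, and Eomes (chr9:118477939-118478238) held 1 IRF repeat, at position -154 from the start.
Batf: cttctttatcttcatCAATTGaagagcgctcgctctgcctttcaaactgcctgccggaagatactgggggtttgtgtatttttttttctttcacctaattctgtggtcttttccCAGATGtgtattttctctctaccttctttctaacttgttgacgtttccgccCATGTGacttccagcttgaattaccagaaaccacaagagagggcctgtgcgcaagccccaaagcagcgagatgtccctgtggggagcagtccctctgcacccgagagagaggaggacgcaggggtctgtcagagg
Zbtb32: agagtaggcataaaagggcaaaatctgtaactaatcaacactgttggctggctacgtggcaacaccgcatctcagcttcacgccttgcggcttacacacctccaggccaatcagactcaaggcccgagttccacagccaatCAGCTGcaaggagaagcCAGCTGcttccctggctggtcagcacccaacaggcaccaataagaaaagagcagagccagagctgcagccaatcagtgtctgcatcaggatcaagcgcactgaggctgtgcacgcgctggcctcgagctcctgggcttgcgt
Eomes: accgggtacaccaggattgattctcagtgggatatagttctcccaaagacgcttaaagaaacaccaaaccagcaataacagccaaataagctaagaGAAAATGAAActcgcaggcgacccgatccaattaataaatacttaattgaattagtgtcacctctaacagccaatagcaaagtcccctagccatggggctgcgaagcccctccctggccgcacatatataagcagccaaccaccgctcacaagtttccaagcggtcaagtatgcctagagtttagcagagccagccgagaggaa
Prdm1 held an AP-1 core at -48 and CAGGTG at -87, and Tbx21 held CAGGTG at -196. In 1 of the 4 Zeb2 windows there were AP-1 cores at -189 and -132. The Id2 and Irf4 windows held E-boxes only, and no window held the T-box core or CACGTG. These matches are letters in a window and were not set against any binding data.

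The genes around the factors were examined as 6 lists, each over the mean of the 4 sites against the graft, where 34.3% of all tested genes were called higher and 19.1% lower, with a median difference of 0.23. Some passed the filter on dim probes through day 4 alone, so that a call higher there is in part set by the filter. Of 13 tested T-bet and EOMES target genes 7 rose and 1 fell, with a median difference of 1.12, while Tbx21 did not pass the test and Eomes fell. Of the 7, 3 passed the filter through day 4 alone. Gzmb, the cytotoxic protease granzyme B, rose by 7.23 (SE 0.57, limma adjusted p = 1.08e-09), and Ifng, interferon gamma, by 5.92 (SE 0.60, adjusted p = 4.07e-08). The chemokine gene Xcl1 rose by 2.80 (adjusted p = 8.07e-06) and the death ligand gene Fasl by 2.58 (adjusted p = 2e-05). Gzmb, Ifng and Fasl were well above background on 1 of 4 graft arrays each and on 20 of 20 at day 4, so the sizes of their differences rest on a graft signal that was mostly not measured. Ccl5, another chemokine gene, fell by 1.64 (adjusted p = 0.00718), and all 20 day 4 arrays lay below every graft array, as for 6.25% of all tested genes. Prf1, the pore-forming perforin, was called at 1 site, blood (1.48, adjusted p = 0.0369), and not over the sites (0.24, adjusted p = 0.689).

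Of 14 tested AP-1, IRF and related genes, 3 rose and 5 fell (median -0.11). Of these, 2 of the 3 had passed the filter through day 4 alone and 2 of the 5 through the graft alone. Jun, an AP-1 partner, fell by 3.00 (SE 0.29, limma adjusted p = 2.54e-08), with all 20 day 4 arrays below the graft, while Batf rose. Irf7, well above background on 10 of 20 day 4 arrays, fell by 1.08 (adjusted p = 0.000357) and Irf1 fell by 1.02 (adjusted p = 0.00256). The AP-1 gene Fosl2, well above background on 2 of 4 graft arrays, rose by 1.48 (adjusted p = 0.00266). Irf2, whose graft arrays were not well above background, was also called higher (adjusted p = 0.0119), with 8 of 20 day 4 arrays well above it. Of 4 tested E proteins and other ID proteins 1 rose and 1 fell (median 0.35). Tcf3, which passed the filter through day 4 alone, was at least 5.22-fold higher in the scaling reported here (adjusted p = 0.000291). Its log2 difference was 2.33 with the median of probes detected on all arrays and 1.70 with normexp background correction. Both are smaller than that bound. Tcf4, which passed through the graft alone and was well above background on 9 of 20 day 4 arrays, fell by 1.76 (adjusted p = 0.00974).

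Of 24 other tested regulators of T cell differentiation 10 rose and 3 fell (median 0.65), and 4 of the 10 had passed the filter through day 4 alone. Stat5a, which signals from the IL-2 receptor and was well above background on 1 of 4 graft arrays, rose by 3.61 (limma adjusted p = 6.77e-08). That size rests on a graft signal that was mostly not measured, and with normexp background correction it was 1.45. Rbpj, the nuclear partner of Notch, was at least 2.27-fold higher (adjusted p = 6.29e-06), and Nfil3 rose by 2.17 (adjusted p = 2.5e-05). The early response genes Egr1 and Egr2 fell, with differences of -3.03 (adjusted p = 0.000122) and -2.24 (adjusted p = 0.0101), Egr2 with 7 of 20 day 4 arrays well above background. Of 11 tested naive and memory factors 1 rose and 3 fell (median 0.13). Klf3 fell by 1.45 (adjusted p = 0.0032), Klf2, which sustains recirculation, fell by 1.02 (adjusted p = 0.0117), and Bcl6, the repressor opposed to Blimp-1, fell by 1.51 (adjusted p = 0.0159). Myb went the other way, having passed the filter through day 4 alone, and was at least 6.52-fold higher (adjusted p = 4.08e-07). B cells also express Bcl6 and Tcf4, and 6 of 9 tested B and plasma cell markers were called lower at day 4. Their part in these falls was not tested. Of 6 tested genes that PRDM1 represses in lymphocytes, Bcl6, also counted above, was the 1 that fell and 0 rose (median -0.06).

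For the factors other than Irf4, the tested gene whose level followed it most closely over the 24 arrays was found by Pearson's r. These values describe arrays that share the step from graft to day 4 and the scaling of each array. They were 0.976 for Zbtb32 with Cdca5, a cohesion factor of dividing cells, 0.967 for Batf with Taf11, 0.966 for Tox with Sms and 0.943 for Bhlhe40 with Nfil3. For factors not called over the sites, r was 0.992 for Zeb2 with Norad, a noncoding RNA, 0.902 for Tbx21 with Fastk and 0.881 for Id2 with H3f3b. Eomes followed Gm15753 with 0.834, and r was 0.665 for Prdm1 with Dennd5a, the least close of those given. Eomes was well above background on 1 of 20 day 4 arrays and Prdm1 on 0 of 4 graft arrays. Their r values thus rest in part on signal that was not measured.

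The scaling of the arrays changed these values. Among called genes over the sites 64.3% were higher, and this share was 50.2% under quantile normalisation, 40.9% when the 75th percentile was taken over probes detected on all arrays, 36.4% with the median of those probes, and 71.1% with normexp background correction. The median over all tested genes moved from 0.23 to -0.05, -0.18, -0.32 and 0.29. Zbtb32, Bhlhe40, Tox and Batf stayed called higher and Eomes called lower under these scalings. Tbx21, Id2 and Zeb2, which were not called over the sites in the scaling reported here, changed sign among them. The median of the T-bet and EOMES targets ran from 0.58 to 1.20 over these 4 scalings and that of the other differentiation regulators from 0.10 to 0.50, while the medians of the other 4 lists were below 0 in 3 scalings and above 0 with normexp. Counts of called genes moved as well. Of the other differentiation regulators 6, 7, 6 and 10 rose under quantile, both detected-probe scalings and normexp. In the same order, 2, 1, 1 and 3 of the AP-1, IRF and related genes rose, and 5, 5, 5 and 2 of the naive and memory factors fell. Of the genes that PRDM1 represses 2, 2, 2 and 1 fell, and of the T-bet and EOMES targets 7, 7, 6 and 7 rose and 1, 1, 2 and 1 fell. All genes of the lists named with a value over the sites, other than Prf1 and Irf2, kept their direction, and the calls of Irf1 (adjusted p = 0.0723) and Klf2 (adjusted p = 0.132) ended with normexp. Irf2 kept its sign but was called under quantile normalisation alone.

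**Figure D5:**
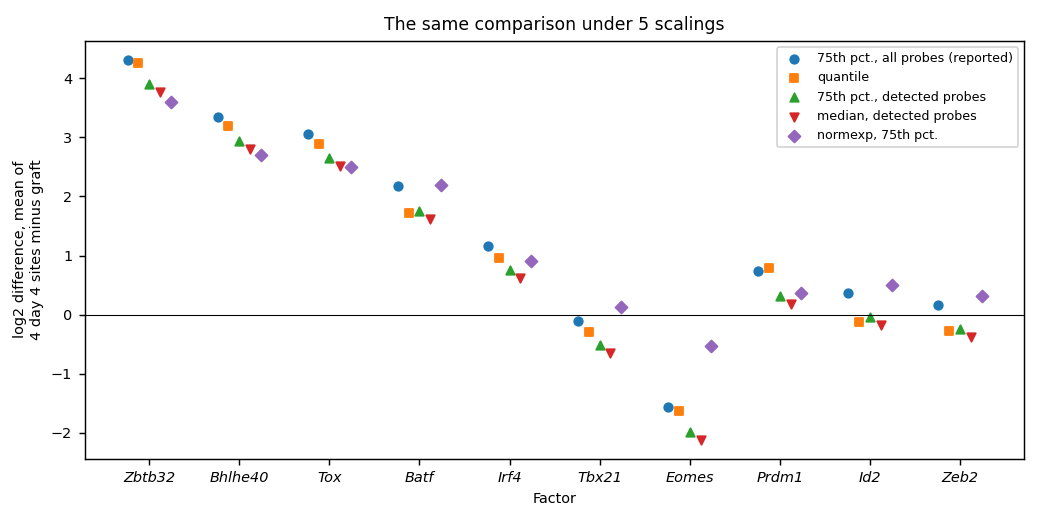
Difference of the mean of the 4 day 4 sites from the graft (vertical axis, log2) for the 10 factors under 5 scalings of the arrays (symbols). Zbtb32, Bhlhe40, Tox and Batf lie above 0 and Eomes below 0 under all 5, and Tbx21, Id2 and Zeb2 lie on both sides of 0.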

How the data were processed

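RNA of the selected cells, 300 pg per sample, was amplified in 2 rounds and labelled with Cy3 per the labels' protocols, on 24 one-colour Agilent arrays. The deposited scanner files hold processed signal intensity, after background subtraction and not normalised between arrays, from Agilent Feature Extraction (9.5.1.1 per the file headers, 10.7 per the submitters' processing notes). A table of log2 values, deposited by the authors beside these, matched quantile-normalised, probe-centred log2 signal (lowest correlation 0.99977) and was used as an alternative only.

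Levels were processed signals on the log2 scale, with the 75th percentile of the gene probes subtracted per array. Control spots and flagged outliers were left out, and spots of a probe were averaged. Probes well above background on all arrays, or all but 1, of a group were tested, and the one with the highest mean stood for its gene (9444 genes). Names were updated through a RefSeq gene table, by accession for 27508 probes, symbol for 3544 and synonym for 404, while 1525 kept the file's name and 6448 had none. One limma model (3.58.1, R 4.3.3) with 1 mean per group gave 12 contrasts, with Benjamini-Hochberg adjustment within each. On simulated data for the mean of the 4 sites against graft over 9444 genes, 49% of changes of 1 log2 unit and 88% of changes of 2 were recovered. The number of arrays limits the precision. The genes and lists were chosen with earlier results of these data known. Named genes were every factor and, per list, up to 4 called genes with the smallest adjusted p plus up to 2 that went against the list; Prf1, the NK cell markers and B cell markers were named after their values were seen. The gene most like Irf4 and some B cell markers are not reported here. Alternatives covered scaling, background correction, filters, probe choice, slide and replicate blocks, array weights, variance settings, and leaving out arrays.

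Arrays of different sites with the same replicate number shared a slide. Their deviations from the group means correlated above 0.1 in 18 of 30 pairs (lowest -0.37, median 0.14). Among day 4 arrays with different numbers 38 of 120 pairs did so (median -0.04). The labels do not say whether a number stands for the same animal. The numbers were not taken to pair the samples in the reported fit, and blocks by slide or replicate were fitted as alternatives.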

Additional observations from a re-analysis of the deposited data

Results flagged for a closer look

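Within groups, 3 of 50 sets of arrays held 1 array far from the rest (Dixon's ratio of the gap to the range, with a 95% critical value of 0.71 for 5 arrays), and chance alone gives about 1 in 20. Id2 read 1.77 on intestine array 4, and Prdm1 read -2.26 on the same array, both below the other intestine arrays, and Zbtb32 read 3.58 on liver array 5, below the other liver arrays. The differences between intestine and blood in Irf4 (-2.27, limma adjusted p = 0.0277, with 2 of 5 intestine arrays well above background) and Zbtb32 (-1.76, limma adjusted p = 0.0151) are listed because the direct test between sites called them.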

How the results depend on the processing

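Over 39 alternative settings, 25 of the 30 calls (10 factors in 12 comparisons) were kept under every alternative in which the gene was tested. Those are Zbtb32, Bhlhe40, Tox, Batf and Eomes against the graft at each site and over the sites. Such comparisons share the graft arrays and are not separate results. Eomes passed the filter through the graft alone, so its calls are in part set by the filter. The other 5 calls were lost under some alternative: Irf4 in blood, in liver and in intestine against blood, Id2 in liver, and Zbtb32 in intestine against blood. No call changed direction, and 19 of 90 values not called were called under some alternative. Scaled by the 75th percentile of detected probes, the factors called lower were 2 in liver and 2 over the sites, and 0 were called between intestine and blood. With the median of those probes they were 2 in blood, 2 in liver and 2 over the sites, and 1 between intestine and blood. Requiring every array of a group to be well above background removed Eomes from the test, which left 0 called lower at each site and over the sites. With array weights 7 were called higher over the sites, and 1 between lung and blood, 4 between intestine and blood and 4 between intestine and liver. Fitting only the groups compared left 0 between intestine and blood, and leaving out lung array 4 and intestine array 4 left 1. Leaving out 1 array at a time gave 0 to 4 factors called between intestine and blood, 0 to 3 between intestine and liver, 0 to 2 between intestine and lung and 0 to 1 between lung and blood. With the replicate block, 2 were called between intestine and blood (adjusted p = 0.0205 for Irf4 and for Zbtb32), and no other count of called factors moved by over 1.5 times. The causes of these changes were not tested. These counts stand without the share of all tested genes called under each setting, so they are not results about the factors. Eomes in most day 4 arrays, Prdm1 in the graft, Irf4 in intestine and the second Tox probe in the graft are limited by signal over background.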
